A study of Homo sapiens with 6 samples.

Results

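The PGC-1 coactivators and their partners were followed in the HK-2 transcriptome, to ask whether a fall of PPARGC1A after TGF-β1 was matched by its paralogs and by the factors it works with. The group comprised 10 genes of 41497 named entries in each table, taken as the entry on the primary chromosome. They were the coactivators PPARGC1A, PPARGC1B and PPRC1, the orphan receptors ESRRA and ESRRG, the transcription factor NRF1, the mitochondrial factor TFAM and the receptors PPARA, PPARD and PPARG. Each had a single entry under its name. RNA came from wild-type HK-2 cells (HK2 in the labels), which are immortalised epithelial cells of the human proximal tubule, at 24 hours. There were 3 libraries of untreated control cells and 3 of cells given TGF-β1, a profibrotic cytokine. The growth medium contained serum (FBS). By the study's methods TGF-β was given in serum-free medium, and whether controls were changed to it too is not stated. HK-2 is a single cell line, and whether the 3 libraries of a group came from separate cultures is not stated, so p-values measure the spread between these libraries, which may be technical.

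PGC-1 coactivators do not bind DNA themselves. They dock on nuclear receptors and other DNA-bound factors and recruit the machinery that opens chromatin and starts transcription. PPARGC1A encodes PGC-1α, which is induced by cold, fasting and exercise and is abundant in tissues rich in mitochondria such as the proximal tubule. PPARGC1B encodes PGC-1β, and PPRC1 encodes the more widely expressed PGC-1-related coactivator. Estrogen-related receptors and NRF1 bind promoters of respiratory chain genes, TFAM packages and transcribes mitochondrial DNA, and PPAR receptors act on genes of fatty acid use together with RXR.

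Upstream sequences of the coactivators and of PPARD and ESRRA are printed here because the coactivators moved in opposite directions, and ESRRA serves as a member without a call. They are the 250 bases before a start site, 5′ to 3′, from RefSeq on GRCh38.p14. Capitals mark an E-box (CACGTG) in PPARGC1A and an NRF-1 element (GCATGCGC) in ESRRA. The coordinates are chr4:24472906-24473155 and chr4:23881102-23881351 for the upstream and the downstream start of PPARGC1A on the minus strand. On the plus strand they are chr5:149771690-149771939 for PPARGC1B, chr10:102132790-102133039 for PPRC1, chr6:35342308-35342557 for PPARD and chr11:64305274-64305523 for ESRRA.
PPARGC1A, upstream start: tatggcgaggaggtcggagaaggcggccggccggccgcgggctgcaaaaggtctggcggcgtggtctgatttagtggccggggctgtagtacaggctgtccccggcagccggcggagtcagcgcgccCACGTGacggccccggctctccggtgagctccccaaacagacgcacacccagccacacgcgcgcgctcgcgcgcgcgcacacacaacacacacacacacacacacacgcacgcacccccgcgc
PPARGC1A, downstream start: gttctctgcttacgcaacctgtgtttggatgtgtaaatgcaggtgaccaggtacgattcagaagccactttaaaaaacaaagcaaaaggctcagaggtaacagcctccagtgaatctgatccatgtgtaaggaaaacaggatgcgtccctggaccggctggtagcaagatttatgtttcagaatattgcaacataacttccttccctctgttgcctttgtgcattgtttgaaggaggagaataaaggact
PPARGC1B: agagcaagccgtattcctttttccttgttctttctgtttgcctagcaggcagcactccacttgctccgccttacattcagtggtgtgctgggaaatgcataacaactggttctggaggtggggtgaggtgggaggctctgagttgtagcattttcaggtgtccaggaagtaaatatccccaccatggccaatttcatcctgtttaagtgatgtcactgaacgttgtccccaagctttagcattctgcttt
PPRC1: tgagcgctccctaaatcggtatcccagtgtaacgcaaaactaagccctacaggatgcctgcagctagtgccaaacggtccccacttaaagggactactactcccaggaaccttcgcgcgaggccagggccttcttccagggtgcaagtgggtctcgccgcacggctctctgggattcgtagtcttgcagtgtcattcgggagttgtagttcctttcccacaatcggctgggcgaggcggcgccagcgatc
PPARD: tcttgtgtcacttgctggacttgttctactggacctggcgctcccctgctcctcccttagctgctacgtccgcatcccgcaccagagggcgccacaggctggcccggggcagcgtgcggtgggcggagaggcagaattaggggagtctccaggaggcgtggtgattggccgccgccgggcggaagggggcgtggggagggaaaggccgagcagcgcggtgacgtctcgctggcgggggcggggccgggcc
ESRRA: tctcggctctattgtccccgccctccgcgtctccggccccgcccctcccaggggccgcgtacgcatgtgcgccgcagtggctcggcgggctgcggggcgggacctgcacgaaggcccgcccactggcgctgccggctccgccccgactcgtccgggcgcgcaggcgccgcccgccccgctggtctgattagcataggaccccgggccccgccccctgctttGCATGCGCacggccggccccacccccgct

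The search covered 10 motifs on both strands in 23 windows of 9 of the 10 genes, and NRF1 had no window in the table. The share of all 35116 windows with each motif is the background. The E-box of PPARGC1A began at position -123 from the upstream start, and 6.34% of all windows held one. The CRE core TGACG, which overlaps that E-box, began at -119, and it was also found at -32 in PPARD and at -72 in 1 window of ESRRG, against 21.2% of all windows. The NRF-1 element began at -29 in ESRRA and at -20 and -18 in 1 window of PPARA, against 2.63% of all windows. The windows of the downstream PPARGC1A start and of PPARGC1B, PPRC1, TFAM and PPARG held none of the letters searched. For PPARGC1B and PPRC1 the start sites of these windows, 149771940 and 102133040, lie inside the annotated genes. Those genes begin at 149730302 and 102120634, and the sequence before these outermost positions was not searched. The other motifs were an ERR element (TNAAGGTCA, 0.854% of all windows), the full CRE (TGACGTCA, 1.65%), a SMAD palindrome (GTCTAGAC, 0.182%), a CAGA box (AGCCAGACA, 0.231%), GABP (CCGGAAGT, 3.42%), YY1 (AAGATGGC, 1.36%) and AP-1 (TGANTCA, 6.57%), and no window of the group held them. A match is a description of letters and not of binding. The tables give a single count per gene, so the upstream and downstream starts of PPARGC1A could not be told apart. Only the windows at start sites 24472905 and 23881101 were searched for PPARGC1A, so any other start of this gene was not covered.

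Libraries held 21.94 to 26.91 M counts (megacounts). The Pearson correlation across genes of log2 CPM was 0.989 to 0.992 within groups and 0.961 to 0.966 between them. Of 16 proximal tubule and epithelial markers, 11 passed the count filter, and their summed level was 1429 to 1508 CPM in control and 1892 to 2048 CPM after TGF-β1. PAX8, the keratins KRT8, KRT18 and KRT19, and GGT1 were present, whereas the endocytic receptor LRP2 and the transporter SLC22A6 had 0 reads in every library. These 2 and CUBN, SLC34A1, SLC5A2, ANPEP and CDH1, 7 of the 16 markers, were under 1 CPM in every library. Summed fibroblast markers were 60.0 to 69.6 CPM in control and 58.4 to 59.5 CPM after TGF-β1. LUM made up most of that sum, at 61.7 and 51.0 CPM on average, and THY1 was also lower, at 0.895 and 0.269 CPM. PDGFRB, at 0.551 and 5.79 CPM, and COL3A1, at 0.198 and 1.40 CPM, were higher after TGF-β1 by 3.38 and 2.78 on the log2 scale (edgeR adjusted p = 1.1e-07 and 1.4e-05). Summed leukocyte markers were at 6.25 to 7.33 CPM in control and 23.9 to 27.2 CPM after TGF-β1, with CD3E and TYROBP at 0 reads, and CSF1R, at 4.19 and 24.6 CPM on average, made up most of the sum. CD14 went the other way, at 2.55 and 0.763 CPM (log2 fold change -1.72, edgeR adjusted p = 0.00021). Endothelial markers summed to at most 1.68 CPM and adipocyte markers to at most 0.154 CPM, with ADIPOQ and LEP at 0 reads. The part of these markers in the results was not tested. In bulk RNA, fewer cells of a kind and less RNA per cell cannot be told apart.

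After TGF-β1, PPARGC1A was lower and both of its paralogs and PPARD were higher. Of the 9 genes that passed the count filter, 4 were called at an adjusted p under 0.05, which is 44.4%, against 44.3% of the 14860 genes tested. PPARGC1B, PPRC1 and PPARD were called higher, against 22.2% of all genes, and PPARGC1A was called lower, against 22.1%. The share of calls in the group was thus close to the background. Among the 9, PPARGC1A alone was called with a change of at least 2-fold, and 5.38% of all genes had such a fall and 3.68% such a rise. The median log2 fold change of the 9 genes was 0.09, beside 0.01 over all genes. Values are in CPM, which are counts per megaread with TMM scaling, and fold changes come from the edgeR quasi-likelihood test adjusted over all genes tested.

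**Figure D1:**
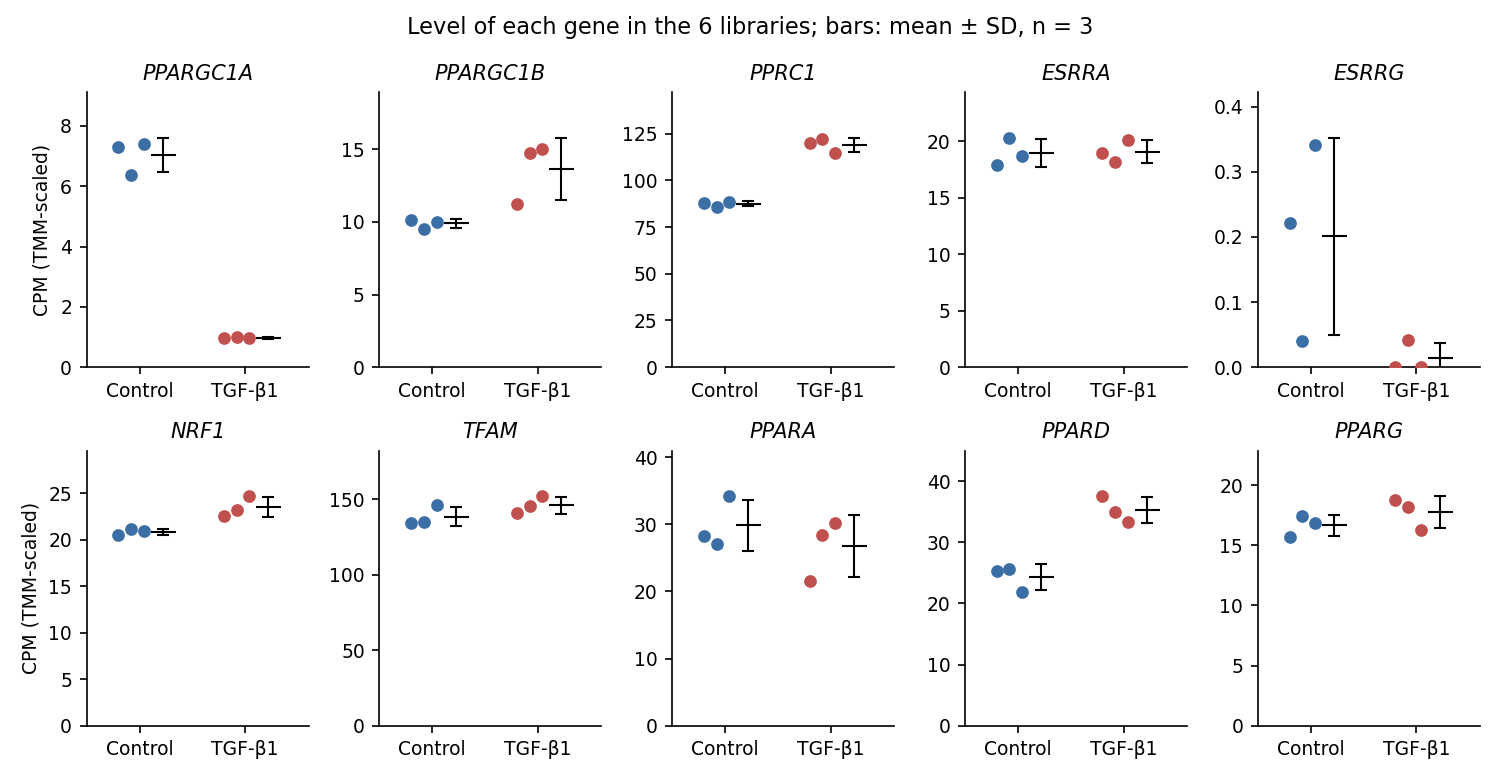
Level of each of the 10 genes in CPM (vertical axis, from 0) in 3 control and 3 TGF-β1 libraries (points), with mean ± SD (bars, n = 3). PPARGC1A falls from 6.38 to 7.41 CPM down to 0.955 to 0.993 CPM, and PPARGC1B, PPRC1, PPARD and NRF1 lie higher in every TGF-β1 library.

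PPARGC1A showed the largest change among the 9 genes tested. Its read counts were 165, 156 and 174 in the control libraries and 25, 24 and 20 in the TGF-β1 libraries. These are 7.31, 6.38 and 7.41 CPM against 0.960, 0.993 and 0.955 CPM. The groups were far apart, and the TGF-β1 libraries lay close together. Mean levels were 7.03 ± 0.572 and 0.969 ± 0.0204 CPM (SD, n = 3). The log2 fold change was -2.85 ± 0.15 (SE), with a 95% interval of -3.18 to -2.52 and an adjusted p of 7.8e-08, which is 7.22-fold lower. Ordered from the lowest fold change, PPARGC1A ranked 62 of 14860 genes. The gene lies at chr4:23792021-24472905 on the minus strand.

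PPARGC1B, the nearest paralog of PPARGC1A, moved the other way. Its levels were 10.1, 9.52 and 10.01 CPM in control and 11.2, 14.7 and 15.04 CPM after TGF-β1. The first TGF-β1 library lay close to the controls, and the groups did not overlap. The log2 fold change was 0.46 ± 0.11 (SE; 95% interval 0.21 to 0.72; edgeR adjusted p = 0.007). In TPM, a unit that also divides by gene length, that library had 2.54 and lay within the control range of 2.41 to 2.59.

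PPRC1, the third coactivator, also rose. It had 88.2, 85.9 and 88.4 CPM in control and 119.9, 122.3 and 114.7 CPM after TGF-β1. All 3 TGF-β1 libraries were well above the controls. The log2 fold change was 0.44 ± 0.05 (SE; 95% interval 0.33 to 0.56; edgeR adjusted p = 4.8e-05). The rises of PPARGC1B and PPRC1 were alike in size, with wide overlap of their intervals, and this difference was not tested.

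Per length, PPRC1 made up most of the coactivator mRNA in both groups. It held 90.9 ± 0.317% of the summed TPM of the 3 coactivators in control and 94.2 ± 0.869% after TGF-β1 (SD, n = 3). The share of PPARGC1A was 4.12%, 3.71% and 4.17% in the control libraries and 0.418%, 0.418% and 0.426% in the TGF-β1 libraries. The share of PPARGC1B was 5.13 ± 0.0789% and 5.40 ± 0.865%, which overlapped. Summed over the coactivators, the level was 49.0 ± 1.41 TPM in control and 59.2 ± 2.74 TPM after TGF-β1. The sum was thus higher in every TGF-β1 library, although PPARGC1A was lower. TPM shares depend on the annotated exon length, which was 11937 bases for PPARGC1A and 6543 bases for PPRC1.

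ESRRA, a receptor that partners PGC-1α in the control of respiration, was not called. It encodes ERRα and had 17.9, 20.3 and 18.7 CPM in control and 18.9, 18.2 and 20.1 CPM after TGF-β1. The groups overlapped. Its log2 fold change was 0.01 ± 0.08 (SE; 95% interval -0.16 to 0.17; edgeR adjusted p = 0.95), and its sign turned in several alternative fits. ESRRA shares 284 exon bases with TRMT112 on the opposite strand, and whether counting used strand is not stated.

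ESRRG, which encodes ERRγ, was near the limit of detection and did not pass the count filter. The control libraries held 5, 1 and 8 reads and the TGF-β1 libraries 0, 1 and 0. The groups overlapped at 1 read. The summed reads were 14 and 1, a ratio of 0.0708 with an exact 95% interval of 0.00167 to 0.465, which covers counting error only. The exact conditional test of these reads, which ignores the spread between libraries, gave p = 0.000492. The exact permutation test over libraries gave p = 0.2, where the smallest p possible is 0.1. In a fit of all genes with a count, the edgeR log2 fold change was -3.39 ± 1.08 with an adjusted p of 0.011, and without Control replicate 3 it was -2.78 with an adjusted p of 0.15.

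NRF1 encodes nuclear respiratory factor 1, an activator of nuclear respiratory chain genes. It had 20.5, 21.2 and 20.9 CPM in control and 22.6, 23.2 and 24.7 CPM after TGF-β1. In CPM the groups did not overlap, as for 55.6% of all genes tested. In TPM they overlapped, since TGF-β1 replicate 1, at 18.22, lay just below the control range of 18.24 to 19.29. The log2 fold change was 0.17 ± 0.06 (SE; 95% interval 0.03 to 0.31), and the edgeR adjusted p of 0.051 missed the threshold. Without TGF-β1 replicate 1 the log2 fold change was 0.19 (edgeR adjusted p = 0.030), and without TGF-β1 replicate 3 it was 0.13 (edgeR adjusted p = 0.19). With total counts only it was 0.06 (edgeR adjusted p = 0.46).

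TFAM, the packaging factor of mitochondrial DNA, was not called. It had 134.6, 134.9 and 146.0 CPM in control and 140.6, 145.6 and 151.9 CPM after TGF-β1. The groups overlapped, and the log2 fold change was 0.08 ± 0.06 (SE; 95% interval -0.05 to 0.20; edgeR adjusted p = 0.30).

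Among the PPAR receptors, PPARD was the member that was called. PPARD encodes the widely expressed PPARδ. It had 25.3, 25.7 and 21.9 CPM in control and 37.5, 34.99 and 33.3 CPM after TGF-β1. The lowest TGF-β1 library was above the highest control. The log2 fold change was 0.54 ± 0.08 (SE; 95% interval 0.37 to 0.71; edgeR adjusted p = 0.00025).

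PPARA encodes PPARα, the receptor of fatty acid oxidation in liver and proximal tubule. It had 28.2, 27.1 and 34.2 CPM in control and 21.6, 28.5 and 30.3 CPM after TGF-β1. The groups overlapped, and the interval was the widest among the 5 tested members without a call, with a log2 fold change of -0.16 ± 0.14 (SE; 95% interval -0.48 to 0.17; edgeR adjusted p = 0.40). PPARG encodes PPARγ, the receptor of adipocyte differentiation. It had 15.7, 17.4 and 16.9 CPM in control and 18.8, 18.2 and 16.2 CPM after TGF-β1, with overlap. Its log2 fold change was 0.09 ± 0.08 (SE; 95% interval -0.09 to 0.27; edgeR adjusted p = 0.39).

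The make-up of the PPAR receptors is given per length as a description. PPARD held 46.8 ± 3.94% of their summed TPM in control and 56.7 ± 2.72% after TGF-β1 (SD, n = 3). PPARA held 28.1 ± 3.70% and 21.1 ± 3.85%, and PPARG held 25.1 ± 1.05% and 22.2 ± 1.27%. The PPARD share was higher in each TGF-β1 library than in any control. The summed level was 31.3 ± 0.728 TPM in control and 34.5 ± 1.11 TPM after TGF-β1.

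**Figure D2:**
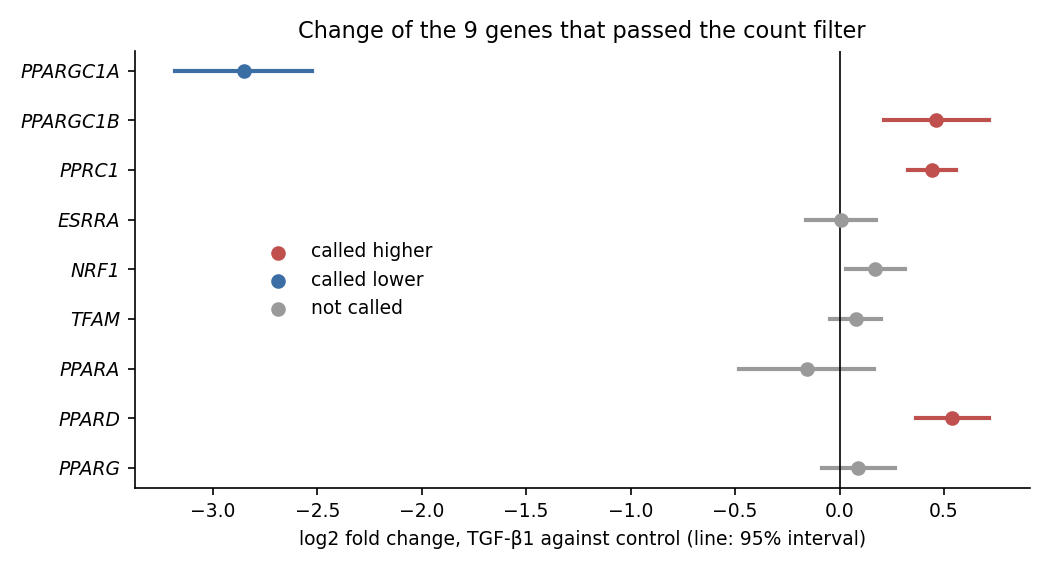
log2 fold change of TGF-β1 against control (horizontal axis) for the 9 genes tested, with 95% intervals (lines), coloured by call. PPARGC1A at -2.85 stands alone on the left, and the other 8 genes lie between -0.16 and 0.54.

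With all libraries scaled by total counts only, the median of all genes was -0.10, and 2134 genes were called higher and 4590 lower, beside 3294 and 3288 with TMM. Under that scaling ESRRA, TFAM and PPARG had log2 fold changes of -0.10, -0.03 and -0.02, on the other side of 0, and none was called. PPARGC1B, PPRC1 and PPARD stayed called higher there and PPARGC1A lower.

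To compare PPARGC1A with each partner free of library scaling, the log2 ratio of its counts to theirs was taken within each library. The ratio to PPARGC1B was -0.47, -0.58 and -0.43 in the control libraries and -3.52, -3.86 and -3.94 in the TGF-β1 libraries, a difference of -3.28 ± 0.14 (SE). Every TGF-β1 library lay below every control. The difference was -3.27 ± 0.06 for PPRC1, -2.84 ± 0.13 for ESRRA, -3.00 ± 0.09 for NRF1 and -2.91 ± 0.07 for TFAM. It was -2.67 ± 0.16 for PPARA, -3.37 ± 0.14 for PPARD and -2.92 ± 0.12 for PPARG. For these 8 genes no TGF-β1 library overlapped a control. The same held for 98.5% of all genes tested, so it is not particular to these partners. The exact two-sided permutation test gave p = 0.1 for each, the smallest that 3 libraries against 3 allow. Adjusted over the 9 ratios by Benjamini-Hochberg these were 0.11, so no ratio could pass a threshold of 0.05. The ratio to ESRRG differed by -0.31 ± 0.87 with overlap (exact permutation p = 0.8), and it rests on few reads.

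**Figure D3:**
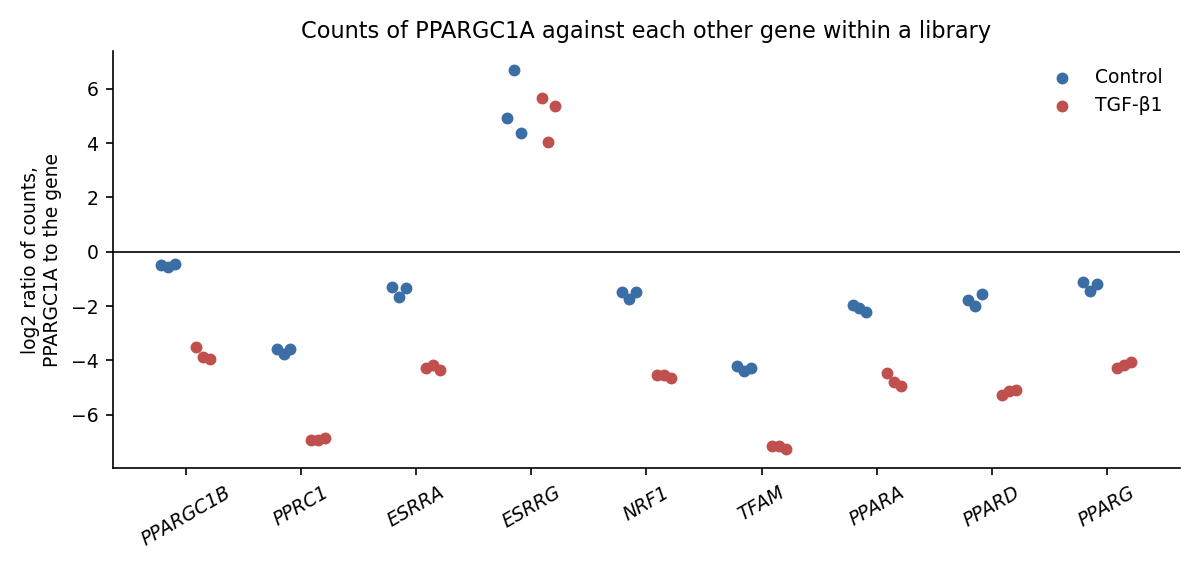
log2 ratio of PPARGC1A counts to those of each other gene within a library (vertical axis, 0.5 added to each count), with control in blue and TGF-β1 in red. The groups are separate for 8 genes, with lower values after TGF-β1, and overlap for ESRRG.

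Per length, the order of levels in control ran from TFAM at 90.5 ± 5.85 TPM (SD, n = 3) and PPRC1 at 44.5 ± 1.18 TPM to NRF1 at 18.9 ± 0.563 and ESRRA at 17.8 ± 1.26 TPM. NRF1 and ESRRA overlapped. PPARD followed at 14.6 ± 1.05 TPM, then PPARA at 8.81 ± 1.27 and PPARG at 7.85 ± 0.498 TPM, which overlapped. PPARGC1B at 2.51 ± 0.0908 TPM, PPARGC1A at 1.96 ± 0.170 TPM and ESRRG at 0.0420 ± 0.0320 TPM came last, with no overlap between neighbours. After TGF-β1 the order differed at 2 places. PPARD, at 19.6 ± 0.795 TPM, now overlapped NRF1 at 19.6 ± 1.29 TPM and lay above ESRRA at 16.4 ± 0.954 TPM, and PPARG at 7.68 ± 0.507 and PPARA at 7.29 ± 1.41 TPM overlapped in the reverse order. PPARGC1A remained above ESRRG alone, at 0.249 ± 0.0109 TPM.

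The 5 genes whose profile over the 6 libraries was most like that of PPARGC1A were GPAT3, PTX3, TSPAN1, PDE1C and IL6R. Likeness was the root mean square difference of log2 CPM, each centred on its mean, over 12539 genes whose mean reached 1 CPM, and it ran from 0.0559 for GPAT3 to 0.149 for IL6R. The profile is mainly the step between groups, so these are genes that fell by a like amount. GPAT3, an acyltransferase of triglyceride synthesis, had 34.1, 32.3 and 34.6 CPM in control and 4.455, 4.59 and 4.25 CPM after TGF-β1. IL6R, a subunit of the interleukin-6 receptor, had 9.22, 8.71 and 9.29 CPM against 1.11, 1.41 and 1.53 CPM. The log2 fold changes of the 5 genes ran from -2.94 for TSPAN1 to -2.68 for PDE1C, a phosphodiesterase.

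**Figure D4:**
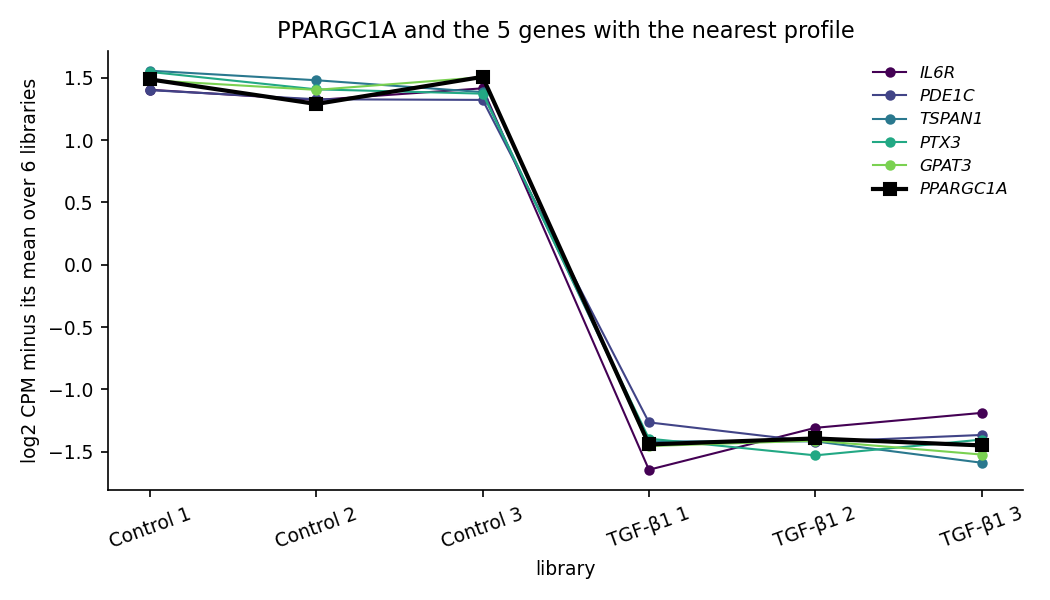
log2 CPM minus its mean over the 6 libraries (vertical axis) for PPARGC1A (black squares) and the 5 genes nearest to it (circles). Lines join points of a gene as a guide to the eye, and all 6 genes step down between the control and the TGF-β1 libraries.

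Other factors that PGC-1 coactivators dock on were taken as a list of 14 genes, of which 10 passed the filter. Of these, 4 were called higher and 1 lower, which is 50% beside 44.3% of all genes, and the median log2 fold change was 0.12. FOXO1, a forkhead factor of fasting metabolism, rose from 1.06, 1.145 and 1.45 CPM to 3.61, 4.05 and 3.10 CPM, a log2 difference of 1.56 ± 0.19 (SE; edgeR adjusted p = 7e-05). MEF2D, a muscle-type activator also found elsewhere, rose by 0.53 ± 0.07 on the log2 scale (edgeR adjusted p = 7.5e-05), and GABPB2, a subunit of the GABP complex, fell by 0.52 ± 0.07 on the log2 scale (edgeR adjusted p = 0.00022). RXRA, the partner of all PPAR receptors, had 68.5 ± 2.33 and 67.6 ± 3.20 CPM (SD, n = 3) and differed by -0.02 ± 0.06 on the log2 scale (SE; edgeR adjusted p = 0.80). It was named after its values were seen. RXRB had 6 entries on alternate contigs and the primary chromosome, and its value is uncertain. With total counts only, 3 genes of this list were called in place of 5.

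The coregulators that act with or against PGC-1 formed a list of 16 genes, 15 of which passed. Here 2 were called higher and 6 lower, which is 53.3% beside 44.3% of all genes, with a median of -0.13. PRMT1, an arginine methyltransferase, rose by 0.44 ± 0.07 on the log2 scale (edgeR adjusted p = 0.00072). LPIN1, which encodes lipin 1, a phosphatidate phosphatase and coactivator, fell from 78.0, 67.3 and 63.3 CPM to 32.8, 37.5 and 36.8 CPM (log2 fold change -0.96 ± 0.09, edgeR adjusted p = 6.5e-06). NCOA3, a steroid receptor coactivator, fell by 0.37 ± 0.11 on the log2 scale (edgeR adjusted p = 0.032). Without Control replicate 1, 5 genes of this list were called in place of 8.

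All 19 listed regulators of PPARGC1A transcription or activity passed the filter, and 5 were called higher and 4 lower (47.4% beside 44.3% of all genes), with a median of 0.08. BHLHE40, a basic helix-loop-helix repressor, rose most in this list, from 65.0, 63.7 and 57.6 CPM to 298.4, 300.1 and 279.8 CPM, by 2.24 ± 0.06 on the log2 scale (SE; edgeR adjusted p = 9.4e-10). CRTC1, a coactivator of CREB, rose by 0.70 ± 0.08 on the log2 scale (edgeR adjusted p = 5.7e-05). PRKAG2, a regulatory subunit of AMPK, fell from 153.0, 147.8 and 162.5 CPM to 79.9, 83.9 and 81.7 CPM (log2 fold change -0.92 ± 0.06, edgeR adjusted p = 2.7e-07). CAMKK2, a kinase that activates AMPK, fell by 0.68 ± 0.06 on the log2 scale (edgeR adjusted p = 4.7e-06). The called regulators thus moved in both directions.

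Nuclear genes for mitochondrial DNA expression, the field in which TFAM acts, all passed. Of 18 genes, 5 were called higher and 2 lower, a share of 38.9% that was below the 44.3% of all genes, with a median of 0.07. POLRMT, the mitochondrial RNA polymerase, rose by 0.52 ± 0.07 on the log2 scale (edgeR adjusted p = 0.00011), and TWNK, the mitochondrial helicase, rose by 0.47 ± 0.07 (edgeR adjusted p = 0.00032). TOP1MT, a topoisomerase, fell by 0.37 ± 0.09 on the log2 scale (edgeR adjusted p = 0.0063), and TFB1M, a ribosomal RNA methyltransferase, fell by 0.23 ± 0.07 (edgeR adjusted p = 0.017). No entry with a name lay on mitochondrial DNA, and entries without a name were left out. Transcripts of mitochondrial DNA were thus not analysed here.

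Mitochondrial genes commonly given as targets of ERR receptors and NRF1 numbered 20, and 19 passed. Of these, 8 were called higher and 1 lower, or 47.4% beside 44.3% of all genes (22.2% higher), and the median was 0.18. SDHB, the iron-sulfur subunit of complex II, had 98.3, 80.2 and 91.6 CPM in control and 139.8, 114.1 and 121.2 CPM after TGF-β1, a rise by 0.47 ± 0.09 on the log2 scale (SE; edgeR adjusted p = 0.0023). CYCS, cytochrome c, rose by 0.37 ± 0.06 on the log2 scale (edgeR adjusted p = 0.00036), and it has processed pseudogenes whose reads cannot be told apart from its own with certainty. SLC25A4, an ADP/ATP carrier, fell by 0.26 ± 0.09 on the log2 scale (edgeR adjusted p = 0.032), although its groups overlapped. With total counts only, 3 genes of the list were called higher and 2 lower. Without Control replicate 3, 4 were called, all higher.

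Genes commonly given as PPAR targets formed the last list. Of 23 genes 17 passed, and 7 were called higher and 5 lower, which is 70.6% beside 44.3% of all genes, with a median of 0.11. ANGPTL4, a secreted lipase inhibitor, rose from 21.8, 19.99 and 21.3 CPM to 147.2, 135.4 and 122.8 CPM, by 2.69 ± 0.08 on the log2 scale (SE; edgeR adjusted p = 1.2e-09). VNN1, a pantetheinase, fell from 44.8, 51.7 and 56.3 CPM to 8.795, 8.975 and 6.97 CPM (log2 fold change -2.62 ± 0.11, edgeR adjusted p = 4.2e-08). PDK4, a kinase that restrains glucose oxidation, fell by 1.24 ± 0.14 on the log2 scale (edgeR adjusted p = 4.7e-05). The called targets thus moved in both directions. With total counts only, 2 were called higher and 6 lower. Without Control replicate 2, 4 were called higher and 4 lower.

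**Figure D5:**
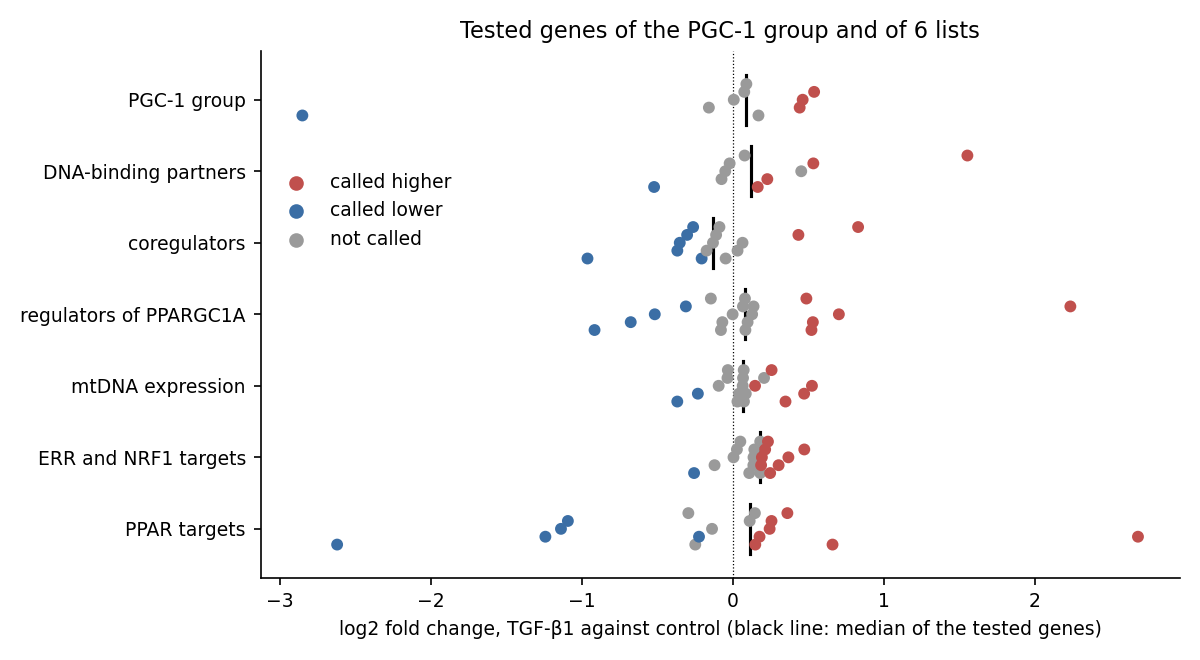
log2 fold change of TGF-β1 against control (horizontal axis) for the tested genes of the PGC-1 group and of the 6 lists (rows), coloured by call, with the median as a black line. Medians lie between -0.13 and 0.18, and PPARGC1A, VNN1, BHLHE40 and ANGPTL4 lie farthest out.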

How the data were processed

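RNA-seq was performed on poly(A) RNA of HK-2 cells at 24 hours, in 3 control and 3 TGF-β1 libraries. The authors deposited raw counts per gene together with TPM and FPKM values. The submitters' processing notes name hg38, featureCounts 2.0.1, DESeq2 1.16.1 and CASAVA, and the aligner is not given in the sources used here. Each table had 42095 entries, with 7 broken records rejoined. The 598 entries without a name (0.396% to 0.464% of counts) were left out of library sizes and tests. The FPKM values the authors deposited were used only to check the tables.

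Genes were kept with filterByExpr at a minimum count of 10. Counts were scaled by TMM and compared with the robust quasi-likelihood F test of edgeR 4.0.16 (two-sided, R 4.3.3), and p-values were adjusted by Benjamini-Hochberg over all 14860 genes tested. Total counts were 21.94 to 26.91 M per library, and CPM used TMM-scaled library sizes of 20.9 to 26.04 M. TPM were as deposited. Intervals of read ratios cover counting error only, since PCR copies could not be told from molecules. On simulated counts the share of false calls stayed near the nominal level when dispersions followed the trend. It exceeded that level when each gene kept its own dispersion, so calls near the threshold may be less secure than their adjusted p. Far fewer genes were changed in the simulation than were called here, so the share of false calls in these data is not known from it. The text names every member, up to 2 called genes with the largest rise and 2 with the largest fall in each list (mean of at least 1 CPM, 1 entry), and the 6 profiles nearest to PPARGC1A. Some genes of this rule and of the lists are not reported here. The members and lists were chosen with earlier results of these data known, and the motifs after some of the promoters were seen. Alternatives were DESeq2 1.42.0, limma-voom (limma 3.58.1), RLE size factors, total counts only, other count filters, glmTreat at 2-fold, a replicate block, entries of a name summed, 2 counts added to a ratio, and leaving out each library.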

Additional observations from a re-analysis of the deposited data

How the results depend on the processing

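PPARGC1A was called lower and PPARGC1B, PPRC1 and PPARD higher with DESeq2, limma-voom, RLE size factors, total counts only, every count filter and without each library in turn, and glmTreat at 2-fold kept PPARGC1A alone, with 0 members higher and 657 genes called in all. The log2 fold change of PPARGC1A ranged from -2.96 to -2.81. By glmTreat the lists had 1 call among DNA-binding partners, 0 among coregulators, 1 among regulators of PPARGC1A, 0 for mtDNA expression, 0 among ERR and NRF1 targets and 2 among PPAR targets. With total counts only, DNA-binding partners had 3 calls and ERR and NRF1 targets 5, while ESRRA (-0.10), TFAM (-0.032) and PPARG (-0.017) changed sign. When genes had to average 50 counts, ESRRA was at -0.015. With all genes with a count, 2 members were lower, the second being ESRRG, whose value ranged from -5.26 to -2.78 without each library, an alternative added after the data were seen. With 2 counts added in place of 0.5, the ratio of PPARGC1A to PPRC1 differed between groups by -3.19, beside -3.27. The ratio to ESRRG then differed by -1.37, beside -0.31. Without each library in turn, calls ranged from 5333 to 7196 over all genes, 3 to 4 for members higher, 4 to 6 for DNA-binding partners, 5 to 10 for coregulators, 8 to 9 for regulators, 5 to 9 for mtDNA expression, 4 to 10 for ERR and NRF1 targets and 8 to 11 for PPAR targets. ESRRA ranged from -0.036 to 0.060, with a negative sign when TGF-β1 replicate 3 (-0.036), Control replicate 1 (-0.032) or Control replicate 3 (-0.0035) was left out, and the ratio to ESRRG from -0.79 to 0.38, positive without Control replicate 2 (0.38) or TGF-β1 replicate 2 (0.19). NRF1 passed the threshold when entries of a name were summed (0.17, edgeR adjusted p = 0.047) and without TGF-β1 replicate 1. It did not pass in the other fits, with 0.17 by DESeq2 (adjusted p = 0.19) and 0.062 by total counts only (edgeR adjusted p = 0.46). The cause of these changes was not tested.

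With a replicate block, 6790 genes were called in place of 6582, and 3 members were higher and 1 lower. Deviations of same-numbered libraries correlated at 0.111, -0.012 and 0.076, and those of differently numbered libraries at -0.149 to 0.088. These ranges overlapped, so the numbers were not taken to pair the libraries, although a weak pairing could not be told from so few values. ESRRG, at 0 to 8 reads per library, was limited by depth.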
